A study of Mus musculus with 24 samples.

Results

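The lysosome was followed in cultured mouse periosteal cells through 40 genes for its enzymes, activator proteins, membrane proteins and regulators, with the enzymes that break down glycosaminoglycans at the centre. The genes were chosen by symbol from a table of 35975 genes, and all 40 were found. They were picked because the score of the WikiPathways glycosaminoglycan degradation set fell more with doxycycline (Dox) in YAPCA cells than that of any other of 4320 gene sets. That choice rests on the same RNA samples as the YAPCA values that follow, so those values are a description and carry no test of the list.

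RNA-seq and ATAC-seq, which maps open chromatin, were made from primary cells of the periosteum, the tissue sheet on the outer face of bone. The YAPCA cells carry tetO-YAPS127A, a transgene for a YAP protein that resists an inhibitory phosphorylation. Dox lets the rtTA activator, made from Gt(ROSA)26Sortm1(rtTA,EGFP)Nagy/J, turn this transgene on, and B6.C-tg(CMV-Cre)1Cgn/J supplies a Cre recombinase that acts in cells of every kind. They were given 1 µM Dox in medium with serum or left untreated, and both arms carry all of these alleles. C57BL6 wild-type cells were given the same Dox or left untreated, and no vehicle was used because the Dox was in water. Each of the 8 groups of genotype, treatment and assay had 3 samples labelled as technical replicates, so a p-value reflects the scatter of these samples alone, and that scatter may be technical.

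Lysosomes are acidic compartments in which hydrolases take apart material brought in by endocytosis, phagocytosis and autophagy. Heparan, chondroitin and keratan sulfate are cut there from the end of the sugar chain by sulfatases and glycosidases that act in turn, and inherited loss of these enzymes causes the mucopolysaccharidoses, storage diseases with marked disease of bone and cartilage. Many lysosomal genes carry the CLEAR element near their start, a motif built around the letters CACGTG to which TFEB, TFE3 and MITF bind.

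Promoter stretches are shown for the genes that hold the core of this element near a start, because Tfeb is itself among the 40 genes. RefSeq promoters (build GRCm38.p6, 250 bases before to 50 bases after each listed start) were matched for 33 of the 40 genes, with 38 promoters. The CLEAR core TCACGTGA was found in 5 of the 38 (13.2%, against 0.974% of all 32851 promoters) and the E-box CACGTG in 12 (31.6%, against 7.15% of all). Both motifs read the same on either strand, and every TCACGTGA match is also a CACGTG match. The TEAD motif GGAATG, searched on both strands, was in 7 of the 38 (18.4%, against 14.7% of all), and the AP-1 motif TGANTCA in 3 (7.89%, against 7.81% of all). The stretches that hold TCACGTGA are printed 5′ to 3′ on the strand of the gene, with the motif in capitals; a match describes the letters and is neither a binding site nor a cause.
Cln3, chr7:126583340-126583369, minus strand: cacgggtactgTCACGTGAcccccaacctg
Ctsa, chr2:164833749-164833778, plus strand: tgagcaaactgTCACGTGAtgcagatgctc
Ctsa, chr2:164833766-164833795, plus strand: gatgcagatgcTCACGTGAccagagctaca
Ctsd, chr7:142387908-142387937, minus strand: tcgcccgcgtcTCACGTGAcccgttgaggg
Gla, chrX:134601215-134601244, minus strand: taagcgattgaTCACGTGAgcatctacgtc
Gla, chrX:134601182-134601211, minus strand: tgagatctcggTCACGTGAgcaactctcgg
Mcoln1, chr8:3500462-3500491, plus strand: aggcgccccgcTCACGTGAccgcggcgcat

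Gene RNA levels are normalised read counts, the reads of a gene divided by 1 factor per library, and a change is the difference of mean log2(normalised read count + 1), Dox minus untreated. All 40 genes were among the 13477 with a mean of at least 10. With Dox, 20 of the 40 were lower at a Benjamini-Hochberg adjusted p below 0.05 in limma, 20 were not called and 0 were higher. Of all genes tested, 13.5% were lower and 14.3% higher by the same rule; because this contrast chose the list, nothing is read from the count. The median log2 change was -0.12 over the 40 genes, of which 34 lay below 0, and 0.00 over all genes tested. In 26 of the 40 every Dox sample lay below every untreated sample, where 20% of all genes tested did so and 21% lay apart in the other direction. Added up over the 40 genes, the normalised read counts came to 137741, 139290 and 144114 in the Dox samples, against 148935, 151931 and 153945 in the untreated samples, with no overlap. The changes were small, and the calls rest on the close agreement of replicates: the count of lower genes was 10 without Dox replicate 1, 13 without Dox replicate 2 and 12 without untreated replicate 2. Ids, Hyal1, Ctsa, Ctsd, Ctsh, Tpp1, Gla, Psap, Npc2 and Lamp2, 10 of the 20, were called in each of the 16 alternative settings. The authors' deposited table, made with DESeq2, has 14 of the 40 genes lower at its adjusted p below 0.05, beside 9.83% of its genes. Gusb, Galns, Arsb, Glb1, Cln3 and Tfeb, lower in limma, were not called there.

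**Figure D1:**
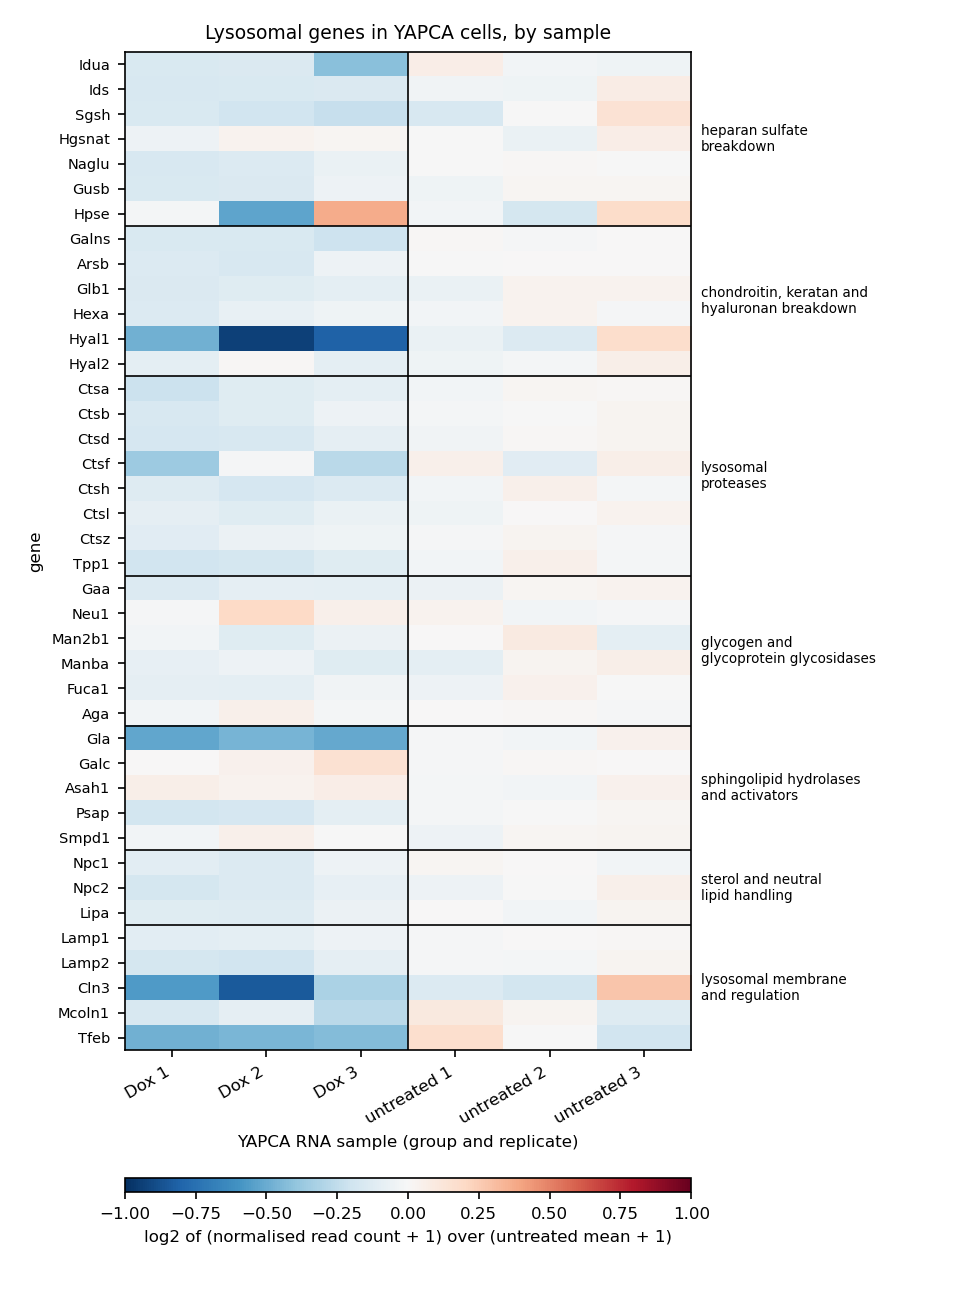
Heat map of the 40 genes (down) in each YAPCA RNA sample (across, Dox on the left), coloured by log2 of the normalised read count + 1 over the untreated mean + 1 and grouped by role. Most genes are pale blue in all 3 Dox samples, Hyal1, Gla, Cln3 and Tfeb are the deepest blue, and Hpse varies as much within a group as between groups.

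Heparan sulfate is broken down by Idua, Ids, Sgsh, Hgsnat, Naglu and Gusb, and Hpse cuts the chain inside. Of these 7 genes, 2 fell with Dox, Ids and Gusb, and the median log2 change was -0.12. Ids, iduronate 2-sulfatase, had 1626, 1632 and 1642 normalised read counts in Dox samples, against 1769.9, 1763 and 1904 in untreated samples. The Dox samples lay close together and under every untreated sample, and the log2 change was -0.15 ± 0.038 (SE). Gusb, beta-glucuronidase, had 2352, 2359.9 and 2516 in Dox samples, against 2532, 2648 and 2643 in untreated samples, a log2 change of -0.11 ± 0.035 (SE). Its Dox replicate 3 came close to the lowest untreated sample, and the call was lost in 4 of the 6 fits that leave out a library. Idua, alpha-L-iduronidase, had a larger log2 change, -0.24 ± 0.095 (SE), without a call: 210.4, 212 and 174 in Dox samples, against 245, 229.6 and 227 in untreated samples. Naglu, alpha-N-acetylglucosaminidase, had 579, 587 and 617 in Dox samples, against 645, 651 and 644 in untreated samples, without overlap and without a call. Sgsh, the sulfamidase, had a log2 change of -0.19 with overlapping groups. Hgsnat, the acetyltransferase of the pathway, had 0.00 and Hpse, heparanase, -0.05 ± 0.20 (SE). Hpse had the fewest reads of the list, with 68.4, 47.9 and 90.0 in Dox samples, against 68.0, 61.1 and 78.8 in untreated samples.

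Chondroitin, dermatan and keratan sulfate and hyaluronan are broken down by Galns, Arsb, Glb1, Hexa, Hyal1 and Hyal2. Of these 6 genes 4 fell, and the other two, Hexa and Hyal2, had log2 changes of -0.08 and -0.06 without a call. Hyal1, the lysosomal hyaluronidase, had the lowest log2 change of the list, -0.74 ± 0.15 (SE). It had 87.9, 63.9 and 69.7 normalised read counts in Dox samples, against 118, 112 and 139 in untreated samples. The groups did not overlap, and the fold of Dox over untreated was 0.601. Galns, which removes sulfate from galactose and N-acetylgalactosamine, had 504, 504 and 486 in Dox samples, against 563, 554 and 561 in untreated samples, a log2 change of -0.17 ± 0.054 (SE). Arsb, arylsulfatase B, had 1582, 1557 and 1683 in Dox samples, against 1736, 1741 and 1745 in untreated samples, a log2 change of -0.12 ± 0.038 (SE). Glb1, beta-galactosidase, had 1139, 1156 and 1179 in Dox samples, against 1200.4, 1291 and 1288 in untreated samples, a log2 change of -0.12 ± 0.042 (SE). Galns, Arsb and Glb1 did not overlap between groups, but leaving out a library ended the call of Galns in 6 of 6 fits, of Arsb in 5 and of Glb1 in 4. Hexa, the alpha subunit of beta-hexosaminidase, had 3064, 3211 and 3276 in Dox samples, against 3315, 3453 and 3356 in untreated samples, also without overlap.

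Among the 8 lysosomal proteases 6 fell, and all 8 had a log2 change below 0, with a median of -0.14. Ctsd, the aspartic protease cathepsin D, had 15542, 15680.4 and 16439.8 normalised read counts in Dox samples, against 17076, 17597 and 17822 in untreated samples. The groups did not overlap, but the gap between them was smaller than the range within the Dox samples, at a log2 change of -0.14 ± 0.027 (SE). Tpp1, tripeptidyl peptidase 1, had 1937, 1958 and 2033 in Dox samples, against 2171, 2292 and 2181 in untreated samples, a log2 change of -0.16 ± 0.035 (SE). Ctsa, the carboxypeptidase that also shields Neu1 and Glb1, had 2871, 3059 and 3108 in Dox samples, against 3259.8, 3374 and 3346 in untreated samples, a log2 change of -0.14 ± 0.034 (SE). Every Dox sample of both genes lay under every untreated sample. The cysteine proteases Ctsh, Ctsb and Ctsl had log2 changes of -0.14, -0.11 and -0.09. Ctsb lost its call without Dox replicate 1, and Ctsl in 4 of the 6 fits that leave out a library. Ctsf (-0.21) and Ctsz (-0.07), also cysteine cathepsins, were not called.

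The 6 glycosidases of glycogen and glycoproteins had a median log2 change of -0.07, and 1 fell. That gene was Gaa, acid alpha-glucosidase, which cuts glycogen, with 4276, 4417 and 4372 normalised read counts in Dox samples, against 4507, 4746 and 4813 in untreated samples. Its log2 change was -0.11 ± 0.031 (SE), and the call was lost in 3 of the 6 fits that leave out a library. Man2b1 and Manba, the alpha- and beta-mannosidases, and Fuca1, alpha-fucosidase, had log2 changes between -0.08 and -0.07 with overlapping groups. Neu1, the sialidase, had 0.08 and Aga, which splits sugar from asparagine, 0.00, neither called.

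The 5 genes of sphingolipid breakdown had a median log2 change of 0.01, and 2 fell. Gla, alpha-galactosidase A, which removes galactose from globotriaosylceramide, had 265, 275 and 266 normalised read counts in Dox samples, against 377, 373 and 393 in untreated samples. The gap between the groups was wider than the spread within either, at a log2 change of -0.50 ± 0.069 (SE) and a fold of 0.707. Psap, the precursor of the saposins that present lipids to these enzymes, had the most reads of the list, with 20391, 20524 and 21647 in Dox samples, against 22824, 23028 and 23474 in untreated samples. Its log2 change was -0.15 ± 0.027 (SE), again without overlap. The other three were not called and lay at or above 0: Galc, galactosylceramidase, at 0.07, Asah1, acid ceramidase, at 0.05 and Smpd1, acid sphingomyelinase, at 0.01. Asah1 had 5391, 5325 and 5424 in Dox samples, against 5126, 5083 and 5342 in untreated samples, so that only the highest untreated sample reached into the Dox range.

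Npc2, which carries cholesterol inside the lysosome, fell, with 9308, 9601 and 9942 normalised read counts in Dox samples, against 10189, 10496 and 10911 in untreated samples and a log2 change of -0.13 ± 0.031 (SE). Its membrane partner Npc1 (-0.10) and Lipa (-0.10), the acid lipase, did not overlap between groups and were not called. Of the 5 genes of the membrane and of regulation 4 fell. Lamp2, a membrane glycoprotein needed for the fusion of autophagosomes, had 7696, 7640 and 8173 in Dox samples, against 8633, 8609 and 8894 in untreated samples, a log2 change of -0.15 ± 0.029 (SE). Its relative Lamp1 had 17609, 17747 and 18266 in Dox samples, against 18753, 19029.6 and 19073 in untreated samples, a log2 change of -0.08 ± 0.024 (SE). Both were apart in every sample, but Lamp1 was called in only 3 of the 6 fits that leave out a library. Cln3, a membrane protein lost in a juvenile neuronal storage disease, had 59.1, 48.9 and 70.8 in Dox samples, against 79.98, 77.8 and 107 in untreated samples, a log2 change of -0.56 ± 0.17 (SE). Cln3 was called in only 3 of the 6 fits that leave out a library, and not in the authors' deposited table. Tfeb, the transcription factor that drives lysosomal genes, had 60.8, 61.9 and 63.0 in Dox samples, against 96.0, 85.2 and 74.6 in untreated samples, a log2 change of -0.45 ± 0.15 (SE). The untreated samples of Tfeb spread much further than the Dox samples, and its call was lost in 4 of the 6 fits that leave out a library. Tfeb, too, was not called in the authors' deposited table. Mcoln1, the calcium channel of the lysosome, had -0.17 with overlapping groups.

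**Figure D2:**
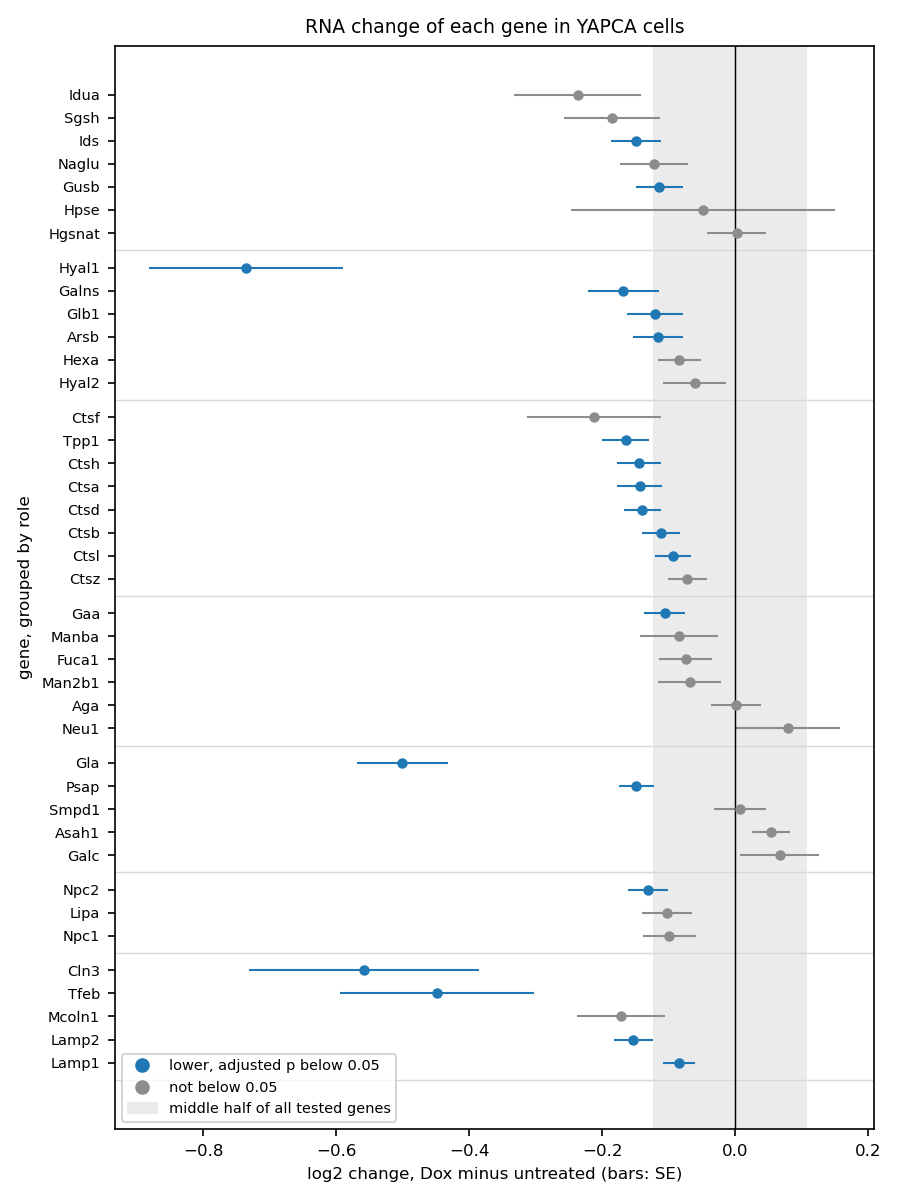
Log2 change of each of the 40 genes in YAPCA cells, Dox minus untreated (points; bars are SE), grouped by role, with genes lower at an adjusted p below 0.05 in blue and the middle of all tested genes, between -0.12 and 0.11, shaded. Hyal1, Cln3, Gla and Tfeb lie between -0.74 and -0.45, most others between -0.25 and 0, and 6 genes above 0.

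The low-count genes carried the larger errors. The 15 genes with a mean under 1000 normalised read counts had a median SE of 0.072 on the log2 scale and 5 calls, and the 25 with at least 1000 had a median SE of 0.034 and 15 calls. Of all 4699 tested genes with a mean of at least 1000, 16.3% were lower and 24.5% higher. Nothing is read from the counts of calls, because this contrast chose the list. Read depth was 27482996, 23267531 and 20771096 reads in the Dox libraries, against 28734643, 24858356 and 16351891 in the untreated libraries. In bulk RNA, fewer cells of a type and less RNA per cell cannot be told apart. Markers of periosteal mesenchyme moved with the list: 8 of 10 were lower with Dox, Col1a1 and Pdgfra (log2 changes of -0.47 each), Cxcl12 (-0.39), Prrx1 (-0.33), Postn (-0.23), Col1a2 (-0.21), Twist1 (-0.15) and Pdgfrb (-0.11), while Ly6a and Thy1 were not called. Their normalised read counts summed to between 467851 and 480757 in Dox samples, against 586090 to 606756 in untreated samples, and their part in the result was not tested. Macrophages are rich in lysosomes. Of 12 macrophage markers 4 had a mean of at least 10 and 0 were called (Cd68, Csf1r, Cd14 and Lyz2), and the sum was 433 to 436 in Dox samples, against 406 to 468 in untreated samples. The macrophage markers Aif1, C1qa and Fcgr1 were at 0 in all 6 samples, and Adgre1 and Ptprc were at 0 in every Dox sample and at most 1.60 in an untreated sample. Of 9 osteoclast markers 4 were tested and 2 fell, Nfatc1 and Itgb3, with a sum of 1086 to 1098 in Dox samples, against 1537 to 1694 in untreated samples. Most of that sum was Nfatc1 (713 to 765 in Dox samples, 1003 to 1102 in untreated samples) and Itgb3 (305 to 335 and 502 to 566). Acp5 and Oscar were not called. Mmp9, Calcr, Ocstamp and Tnfrsf11a had means under 10 and were not tested, and Dcstamp was at 0 in all 6. The part of this list was not tested. Of 7 endothelial markers 3 were tested (Cdh5, Kdr and Tek) and 0 called, with a sum of 85.8 to 128 in Dox samples, against 67.5 to 90.7 in untreated samples. Yap1 had a log2 change of -0.07 and was not called, which does not check the labels because it is not stated whether transgene reads count to it. Ctgf and Cyr61, targets of YAP, were higher, with log2 changes of 0.79 and 0.60.

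Further genes of the lysosome and its supply were counted by lists, whose counts stand beside 13.5% lower and 14.3% higher of all genes tested; no difference between lists was tested. Of 28 tested hydrolases and activators outside the 40, 8 were lower and 0 higher, with a median log2 change of -0.12. Prcp, a carboxypeptidase, had 828, 829 and 835 normalised read counts in Dox samples, against 975, 1008 and 999 in untreated samples, and Ctso, a cysteine cathepsin, had a log2 change of -0.25. In the same list Ctsk, the collagen-cutting cathepsin of osteoclasts, had a log2 change of 0.01 without a call; it was chosen after its value was seen. Of 22 membrane proteins and transporters 9 were lower and 0 higher (median -0.10), with Ctns, the cystine exporter, at -0.32 and Slc17a5, the sialic acid exporter, at -0.25.

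Of 19 subunits of the V-ATPase, the acidifying pump, 3 were higher (15.8%) and 1 lower (5.26%), with a median of 0.01: Atp6v1g1 (0.15) and Atp6v1h (0.15) rose and the accessory protein Atp6ap2 (-0.12) fell. Of 17 genes that tag and sort enzymes by mannose 6-phosphate 2 were higher and 3 lower, with a median of -0.03. M6pr, the smaller mannose 6-phosphate receptor, had 4941, 4915 and 4948 normalised read counts in Dox samples, against 4505, 4486 and 4548 in untreated samples. The sorting adaptors Gga3 (0.19) and Gga2 (-0.19) moved apart, and Cln6, which helps export new enzymes from the endoplasmic reticulum, fell (-0.25). Of 20 genes around the MiT/TFE factors and mTORC1, 1 was higher, Lamtor3 (0.15), part of the scaffold that holds mTORC1, and 3 were lower. The relatives of Tfeb in this list were Tfe3, Mitf and Tfec, of which Tfe3 and Mitf fell and Tfec, with a mean under 10, was not tested. Tfec had 11.8, 8.98 and 10.1 in Dox samples, against 6.398, 8.33 and 7.04 in untreated samples. Tfe3 had 1204, 1242 and 1241 in Dox samples, against 1509, 1443 and 1458 in untreated samples, a log2 change of -0.26, and Mitf had 181, 178 and 169 in Dox samples, against 226, 224 and 255 in untreated samples, a log2 change of -0.42.

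Of 31 autophagy genes 9 were lower and 3 higher, with a median log2 change of -0.07. Sqstm1, the cargo receptor p62, had 6115, 6152 and 6158 normalised read counts in Dox samples, against 8205, 8129 and 8101 in untreated samples, a log2 change of -0.41 ± 0.025 (SE). Atg9a, which brings membrane to the growing autophagosome, also fell (-0.22), whereas Uvrag (0.22) and Atg16l1 (0.17), partners of the lipid kinase and of the conjugation machinery, rose. On the side of synthesis, 43 genes that build or modify glycosaminoglycans had 8 calls higher and 9 lower, with a median of 0.05. Csgalnact1, which starts chondroitin chains, fell (-0.42), with 2972, 2797 and 3084 in Dox samples, against 3887, 3819 and 4115 in untreated samples, and Ndst2, a heparan sulfate sulfotransferase, fell too (-0.19). The sulfotransferases Hs6st2 (0.23) and Chst11 (0.21), acting on heparan and chondroitin sulfate, rose.

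**Figure D3:**
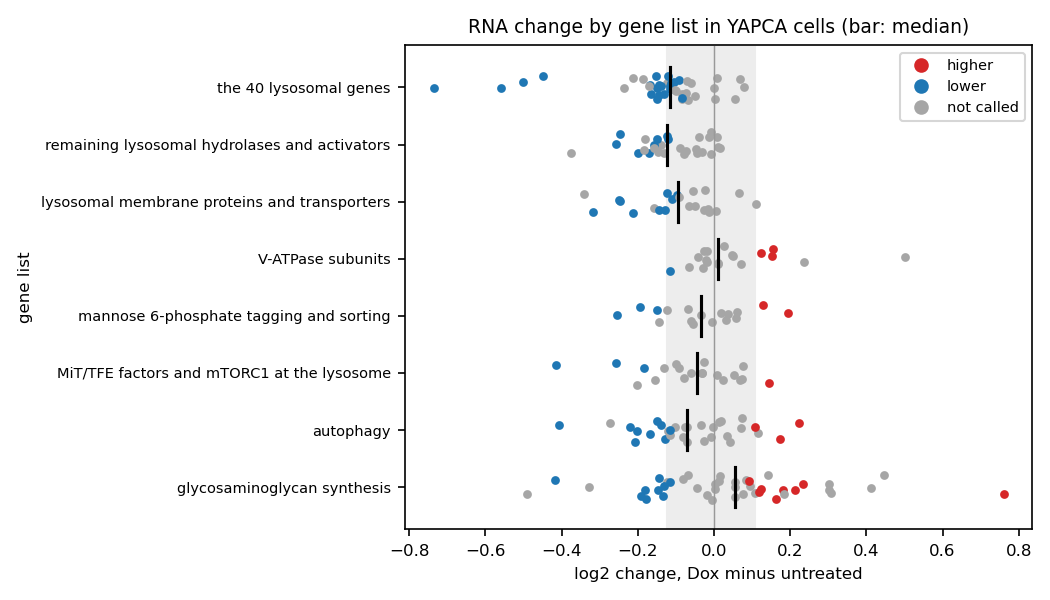
Log2 change, Dox minus untreated, of every tested gene (points; red higher, blue lower at an adjusted p below 0.05, grey not called) in the 40 lysosomal genes and 7 further lists, with each list's median as a bar and the middle of all tested genes, between -0.12 and 0.11, shaded. The remaining hydrolases and the membrane proteins have medians of -0.12 and -0.10, while the V-ATPase and glycosaminoglycan synthesis lists have medians of 0.01 and 0.05.

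ATAC-seq was a readout that the choice of genes did not use. In YAPCA cells the authors' deposited table lists sites with a DiffBind log2 fold, Dox minus untreated, and an FDR, and holds no values per sample, so that no SD or n can be given. At an FDR below 0.05 it lists 30496 sites, of which 87.2% were gained. Nearest to a member and within 100000 bases of the gene lay 33 sites, at 18 of the 40 genes (45%), against 50% of 12802 genes tested in RNA. Of these 33 sites 22 were gained and 11 lost, going by the authors' deposited table, so that 66.7% were gained. Their log2 fold had a median of 0.32 in the authors' deposited table, against 0.51 over all listed sites, and none passed 1, which 3277 of all listed sites did. Inside the body of the gene lay 29 of the 33 (87.9%), against 62.2% of all listed sites. All listed sites were taken at any distance, without the limit of 100000 bases, so these shares do not have the same base. The authors' deposited table gives 10 gained sites and 1 lost site an FDR below 0.01. The share of all listed sites gained at that FDR was not counted, so nothing is read from these counts.

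**Figure D4:**
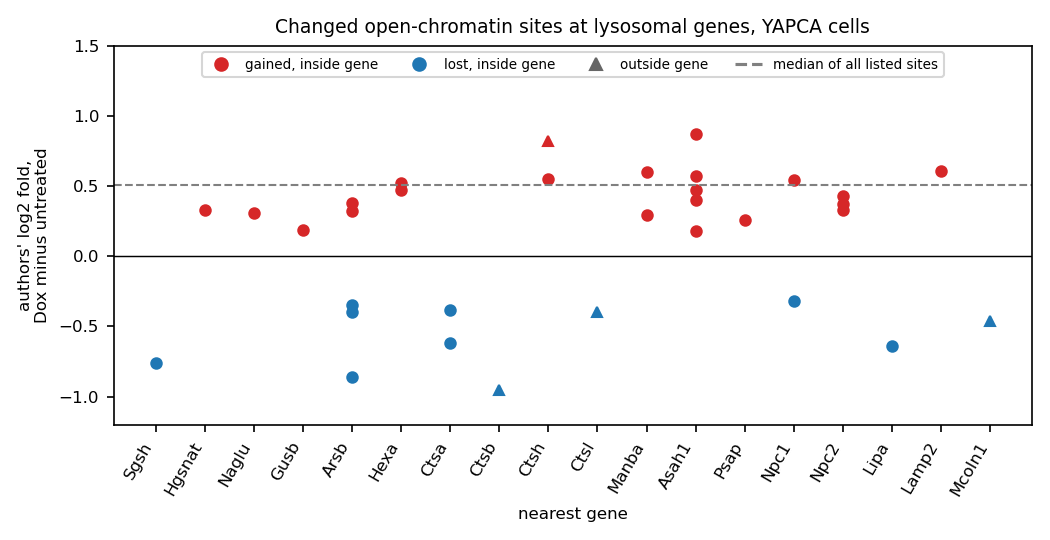
Log2 fold of accessibility in the authors' deposited table, Dox minus untreated, for the 33 listed YAPCA sites by nearest gene (circles inside the gene, triangles outside; red gained, blue lost), with the median of all listed sites, 0.51, as a dashed line. Asah1 has 5 gained sites, Arsb has sites on both sides of 0, and Ctsa has lost sites at -0.38 and -0.62.

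Sites are named by the smallest FDR at each gene, with mm10 coordinates and fold from the authors' deposited table. Asah1, the gene of acid ceramidase whose RNA was not called, had the most sites, 5, all gained, with log2 folds between 0.18 and 0.87 in the authors' deposited table. The site with the smallest FDR there, chr8:41389193-41389641 (0.40, FDR 0.00285), lies in a stretch shared with Frg1. Hexa had 2 gained sites inside the gene in the authors' deposited table, led by chr9:59544505-59545026 (0.47, FDR 3.7e-08), and Npc2 had 3, led by chr12:84766274-84766694 (0.43, FDR 0.00121). At Npc2 the RNA fell while all 3 sites were gained. Ctsh, likewise lower in RNA, had 2 gained sites, and chr9:90047923-90048355, 5912 bases outside the gene, had a log2 fold of 0.82 (FDR 3.25e-09) in the authors' deposited table. Both sites of Manba were gained, led by chr3:135542430-135542700 (0.60, FDR 0.00267 in the authors' deposited table). A separate deposited sheet for chromosome 3 has the headings of the groups exchanged, and with them the 33 sites would be 20 gained and 13 lost.

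Lost sites were found at Ctsa, Ctsb, Ctsl, Lipa, Mcoln1 and Sgsh, where every listed site was lost, and at Arsb and Npc1, which had both kinds. The site of Ctsl with an FDR of 7.01e-05 in the authors' deposited table, chr13:64388432-64389166, had a log2 fold of -0.40 and lay 17660 bases outside the gene. Both sites of Ctsa were inside the gene: chr2:164833981-164834082 (-0.62, FDR 0.0154) and chr2:164833672-164833888 (-0.38, FDR 0.0287) in the authors' deposited table. The site at chr2:164833672-164833888 covers a listed start of Ctsa and both TCACGTGA stretches printed for it. The site of Mcoln1, chr8:3499879-3500209 (-0.46, FDR 0.0305 in the authors' deposited table), lay 310 bases before the start and held no CACGTG match of the promoter. Single lost sites were chr14:63115303-63115472 at Ctsb (-0.95), chr19:34519732-34519933 at Lipa (-0.64) and chr11:119345036-119345246 at Sgsh (-0.76, shared with Card14) in the authors' deposited table. Arsb had 2 gained and 3 lost sites there, led by the lost chr13:93910991-93911539 (-0.35, FDR 0.0109), and Npc1 had 1 of each (0.54 and -0.32), of which the gained site is shared with Rmc1. In the authors' deposited table Gusb, Hgsnat, Lamp2, Naglu and Psap had 1 gained site each: chr5:130002569-130003153 (0.19), chr8:25976524-25976928 (0.33), chrX:38402143-38402375 (0.61), chr11:101069766-101070204 (0.31) and chr10:60285719-60286399 (0.26).

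Listed starts of Ctsa, Gusb and Naglu lay under a listed site. Of the 20 CACGTG matches in the promoters of the list only those of Ctsa and Naglu lay inside a listed YAPCA site, lost at Ctsa and gained at Naglu. The promoter of Naglu is shown because the whole stretch before its start lies in the gained site, with the E-box in capitals.
Naglu, chr11:101069844-101070093, plus strand, GRCm38.p6: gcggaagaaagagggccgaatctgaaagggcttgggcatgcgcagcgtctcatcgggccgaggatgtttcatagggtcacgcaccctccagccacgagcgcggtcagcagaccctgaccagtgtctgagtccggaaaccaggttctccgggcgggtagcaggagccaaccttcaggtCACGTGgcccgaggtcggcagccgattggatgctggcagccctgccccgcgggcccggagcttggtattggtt

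The 12 genes with CACGTG in a promoter were Cln3, Ctsa, Ctsd, Ctsf, Ctsl, Gaa, Gla, Glb1, Lamp1, Mcoln1, Naglu and Sgsh. Of these 12, 8 had lower RNA with Dox, and 20 of the 40 genes did, beside 13.5% of all genes tested. Only 33 of the 40 genes had a promoter to search, so these counts do not share a base. Because this contrast chose the list, nothing is read from them, and a link between motif and RNA was not tested. Lamp1 held 4 matches, all within 61 bases before its start.

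Wild-type cells, which lack these alleles, give the response to Dox itself, and their samples were not used to choose the genes. The authors' deposited table of wild-type RNA lists 98 genes, those with a DESeq2 adjusted p below 0.05, of which 23 were higher and 75 lower with Dox. None of the 40 genes is among them. The smallest mean among the listed genes was 1970 normalised read counts, and 15 of the 40 had a YAPCA mean of at least that. Of the further lists only Igf2r, the larger mannose 6-phosphate receptor, is listed, with 4140.1, 4228 and 3873 normalised read counts in wild-type Dox samples, against 4737, 4596 and 4452 in wild-type untreated samples. The authors' deposited table gives it a log2 fold of -0.17 (adjusted p 0.00664). In YAPCA cells Igf2r was lower with Dox too, with a log2 change of -0.15 (limma adjusted p 0.00803). Of 42 wild-type ATAC sites 1 was nearest to a gene of the list, chr10:60277500-60278189, which covers a listed start of Psap. Its concentrations in the authors' deposited table, 9.82 and 9.47 on the log2 scale (FDR 0.0315), are not headed by group, so no direction is given.

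Gene set scores are the authors' own, 1 per sample, and were computed separately for each genotype, so only differences within a genotype are set side by side. The WikiPathways glycosaminoglycan degradation set scored -0.650, -0.471 and -0.408 in YAPCA Dox samples, against 0.413, 0.345 and 0.609 in YAPCA untreated samples. The difference, -0.97, was the lowest of 4320 sets and chose the genes; the next lowest set stood at -0.88. In wild-type cells the same set scored 0.0554, 0.338 and 0.428 in Dox samples, against -0.267, -0.161 and -0.526 in untreated samples. Every wild-type Dox sample was higher than every untreated sample, by 0.59 in the mean. An exact two-sided permutation test gave p = 0.1, the smallest that 3 against 3 samples allow (0.32 after Benjamini-Hochberg adjustment over 32 sets). The authors' deposited table gives this wild-type difference an FDR of 0.0363, and 9.65% of all 4333 wild-type sets were higher at an FDR below 0.05 there.

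The KEGG sets differed in the same directions. The KEGG glycosaminoglycan degradation set scored -0.595, -0.384 and -0.310 in YAPCA Dox samples, against 0.273, 0.203 and 0.586 in YAPCA untreated samples. In wild-type cells it scored 0.0532, 0.249 and 0.371 in Dox samples, against -0.132, -0.120 and -0.520 in untreated samples. The difference was -0.78 in YAPCA cells and 0.48 in wild-type cells, where the exact permutation p was 0.1 and the authors' deposited table has an FDR of 0.100. The KEGG lysosome set had a difference of -0.54 in YAPCA cells and of 0.47 in wild-type cells (exact permutation p = 0.1), without overlap in either. Of the 32 sets named for lysosomes, glycosaminoglycans, sphingolipids or autophagy, 9 were higher without overlap in wild-type Dox samples and 1 lower, against 12.6% and 4.18% of all sets. By the FDR in the authors' deposited table, 3 of the 32 (9.38%) were higher in wild-type cells below 0.05, next to the 9.65% of all sets. In YAPCA Dox samples 8 of the 32 were lower without overlap and 0 higher, against 16.8% of all sets lower. The share of all sets higher in YAPCA cells was not counted. Nothing is read from these YAPCA counts, because these samples chose the genes. The wild-type set that was lower was the REACTOME hyaluronan metabolism set, at -0.22, which was also lower in YAPCA cells, at -0.50. The authors' deposited tables give this set an FDR of 0.639 in wild-type cells and 0.197 in YAPCA cells. The largest positive YAPCA difference of the 32 was 0.55, in a WikiPathways sphingolipid metabolism set whose groups overlapped.

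**Figure D5:**
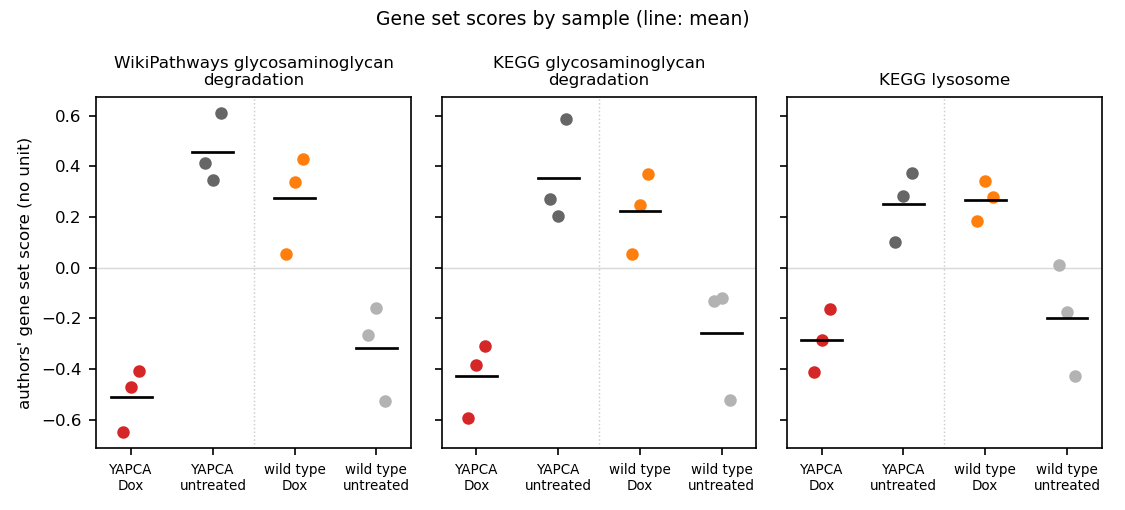
The authors' gene set score (no unit) in each sample, as points, with the mean as a line, for 3 sets in YAPCA cells (left of the dotted line) and wild-type cells (right), Dox before untreated. In each set the YAPCA Dox samples lie below the YAPCA untreated samples and the wild-type Dox samples above the wild-type untreated samples; scores of the genotypes were made separately.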

How the data were processed

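The deposited RNA-seq signal of a gene in a sample is its normalised read count: whole reads over 1 factor per library, as the columns show. Undoing that factor gave whole numbers (within 0.01 read) for 100% of values and 16351891 to 28734643 reads a library. Log2 fold changes and p-values in the deposited RNA tables come from DESeq2, and the wild-type table adds a linear fold (Dox over untreated, a ratio), per the file headers. Sites carry log2 concentrations per group, log2 folds and p-values with an FDR from DiffBind, per the file headers; the deposited wild-type sites hold these values joined in 1 text field, an other kind of unit. The gene set score of each sample is the authors' own. Per the submitters' processing notes, the tools were Bowtie2, HISAT2, SAMtools, bedtools, Picard, featureCounts, MACS2, HOMER, DESeq2 and DiffBind, on build mm10; their settings, the strand and any pooling of samples were not given in the sources used here. Columns without a sample numbered 0.

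Limma 3.58.1 in R 4.3.3 tested the YAPCA RNA, as log2 of the normalised read count plus 1 (two-sided, intensity trend, Benjamini-Hochberg adjusted p below 0.05) over 13477 genes with a mean of at least 10. On this scale the change of genes with few reads is understated. The 27 rows named by a date stayed in the tests. Alternatives used edgeR 4.0.16, DESeq2 1.42.0 on the recovered reads, other scalings, filters and pseudocounts, a replicate block and each library left out. The procedure was tested on simulated data. The chi-square between replicates of 1 group was 1.80 to 3.36 times its degrees of freedom, above sampling noise.

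Sites were assigned to the nearest RefSeq gene (GRCm38.p6, whose main chromosomes have the coordinates of mm10) within 100000 bases; their start is printed as 1 base after the deposited start. The headings of a separate chromosome 3 sheet are exchanged for all 1932 shared sites, and the main sheet's own order was used. The members and lists were chosen with earlier results of these data known. All 40 genes are named or counted; of each further list, the called genes with the largest changes in each direction (at most 2), no overlap and a mean of at least 100; of marker lists, genes with a mean of at least 10; of sites, the smallest FDR per gene. A score difference was tested by exact permutation in scipy.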

Additional observations from a re-analysis of the deposited data

Results flagged for a closer look

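Among the 32 sets named for lysosomes, glycosaminoglycans, sphingolipids or autophagy there were 4 (12.5%), against 97 of all 4320 sets (2.25%), in which every Dox sample of YAPCA cells scored below every untreated sample while every Dox sample of wild-type cells scored above every untreated sample. The difference between the genotypes was not tested, since the scores were made separately for each. The WikiPathways glycosaminoglycan degradation set had differences, Dox minus untreated, of -0.97 in YAPCA cells and 0.59 in wild-type cells. The KEGG glycosaminoglycan degradation set had -0.78 in YAPCA cells and 0.48 in wild-type cells, and the KEGG lysosome set had -0.54 in YAPCA cells and 0.47 in wild-type cells. The WikiPathways set of senescence and autophagy in cancer had -0.24 in YAPCA cells and 0.17 in wild-type cells. The YAPCA values of these sets come from the samples that chose the genes, and the first is the set that chose them. Nothing is therefore read from the count of 4, and genes shared between these sets were not counted. In the authors' deposited table the wild-type FDR was 0.0363 for the WikiPathways and 0.100 for the KEGG glycosaminoglycan degradation set. It was given as 0 for the KEGG lysosome set and as 0.320 for the senescence and autophagy set.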

How the results depend on the processing

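Over the 16 alternatives the number of the 40 genes called higher stayed at 0, the median log2 change of the 40 lay between -0.14 and -0.10 and that of all genes between -0.0037 and 0.0029, and no gene of the list called lower turned its direction. With an adjusted p below 0.01, 2348 genes were called in all and 11 of the 40 were lower, against 3757 and 20 in the reported test. With each library left out in turn, 10 to 22 of the 40 were lower and 2879 to 3583 genes were called in all. The lowest count, 10, was without Dox replicate 1, with 13 without Dox replicate 2 and 12 without untreated replicate 2; the cause was not tested. DESeq2 on recovered reads called 15 of the 40 lower and edgeR 22. Galns, Arsb, Glb1, Cln3 and Tfeb lost their call in that DESeq2 fit. At an FDR below 0.01, 10 sites nearest to the 40 genes were gained and 1 lost, so that 90.9% were gained. Fewer sites are listed there by construction. The share of all sites gained at that FDR was not counted, so nothing is read from the 90.9%. The wild-type glycosaminoglycan degradation difference lay between 0.49 and 0.70 with a library left out.

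With replicate number as a block, 4350 genes were called in all and 25 of the 40 were lower, with 0 higher. Same-numbered samples deviated together little (correlations of -0.0007, 0.036 and 0.085), where differently numbered samples had correlations between -0.075 and 0.051. These values do not show that the numbers pair the samples, and they cannot exclude it. Taken in pairs by number, the wild-type score difference had an exact permutation p of 0.25, the smallest that 3 pairs allow. No paired or leave-one-out analysis of the sites was possible because the deposited site tables hold no values per sample. Genes with few reads had the larger errors, and how much of that is counting error was not tested.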
